A study of Mus musculus with 17 samples.

Results

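Expression in C2C12 cells carrying SRF was compared with that in C2C12 cells carrying the empty vector pMSCV, over all 15062 genes of the count table. The 6 libraries, 3 per line, were taken by the line named in their titles from the 17 libraries of the series, and no measured value was used to choose them. C2C12 is a mouse myoblast line, a cell that divides in serum and can be driven to fuse into skeletal muscle fibres, and pMSCV is a retroviral expression vector. All cells were grown in Dulbecco's modified Eagle's medium with fetal bovine serum, and no agent other than the vector distinguished the lines. The labels give neither the species of the introduced SRF nor whether a line is 1 clone or a pool. They do not say that replicates came from separate cultures, so p-values measure the spread between these libraries, which may be technical. Total counts ran from 21747292 to 23543734 per library.

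SRF, serum response factor, is a transcription factor that binds a short sequence called the CArG box as a dimer. With the MRTF coactivators, which sense the actin pool, it drives genes of the actin cytoskeleton and of contractile fibres, and with the ternary complex factors, which ERK phosphorylates, it drives immediate-early genes such as Fos and Egr1. In skeletal muscle it works beside the myogenic factors MyoD and myogenin, which bind E-box sequences, CAGCTG among them, in genes of the sarcomere and the acetylcholine receptor.

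Promoter sequences of members of these groups are shown to set SRF's own binding sequence beside that of the myogenic factors. Each is the stretch of 250 bases before the start of the gene, 5′ to 3′ on the gene's strand, from RefSeq on GRCm38.p6. Capitals mark a CArG box or CAGCTG. Srf, whose own gene holds CArG boxes, and the cytoskeletal targets Vcl and Actg1 carry the CArG box, and the receptor subunit genes Chrng and Chrna1 and the calcium pump gene Atp2a1 carry CAGCTG.
Srf, chr17:46556163-46556412, minus strand: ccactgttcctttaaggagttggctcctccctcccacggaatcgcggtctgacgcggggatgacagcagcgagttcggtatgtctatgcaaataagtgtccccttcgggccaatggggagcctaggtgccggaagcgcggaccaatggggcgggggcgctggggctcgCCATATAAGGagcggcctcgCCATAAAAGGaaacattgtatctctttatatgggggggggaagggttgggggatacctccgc
Vcl, chr14:20929148-20929397, plus strand: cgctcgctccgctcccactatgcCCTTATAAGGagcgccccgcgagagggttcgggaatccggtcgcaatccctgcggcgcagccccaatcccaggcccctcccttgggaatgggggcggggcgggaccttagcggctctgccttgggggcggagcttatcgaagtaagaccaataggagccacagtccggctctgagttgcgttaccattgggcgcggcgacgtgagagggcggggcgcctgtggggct
Actg1, chr11:120348496-120348745, minus strand: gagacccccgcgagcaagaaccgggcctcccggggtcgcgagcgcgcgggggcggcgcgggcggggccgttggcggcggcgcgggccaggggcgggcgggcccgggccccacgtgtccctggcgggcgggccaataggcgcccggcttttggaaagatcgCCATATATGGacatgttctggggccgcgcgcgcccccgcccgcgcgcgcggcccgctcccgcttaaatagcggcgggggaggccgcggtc
Chrng, chr1:87205561-87205810, plus strand: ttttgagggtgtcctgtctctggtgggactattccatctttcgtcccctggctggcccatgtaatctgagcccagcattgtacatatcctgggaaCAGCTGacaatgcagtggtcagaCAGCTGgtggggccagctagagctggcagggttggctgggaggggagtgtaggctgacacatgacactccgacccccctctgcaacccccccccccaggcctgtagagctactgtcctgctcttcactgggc
Chrna1, chr2:73580339-73580588, minus strand: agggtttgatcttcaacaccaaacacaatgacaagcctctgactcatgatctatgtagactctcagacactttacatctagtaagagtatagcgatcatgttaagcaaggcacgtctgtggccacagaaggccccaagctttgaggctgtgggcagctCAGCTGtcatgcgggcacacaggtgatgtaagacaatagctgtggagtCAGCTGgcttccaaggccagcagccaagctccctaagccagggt
Atp2a1, chr7:126463074-126463323, minus strand: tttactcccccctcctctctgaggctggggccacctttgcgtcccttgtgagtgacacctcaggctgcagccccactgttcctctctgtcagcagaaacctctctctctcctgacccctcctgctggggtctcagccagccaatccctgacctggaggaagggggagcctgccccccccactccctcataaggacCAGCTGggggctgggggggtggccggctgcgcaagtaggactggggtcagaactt

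The CArG box was matched as its strict consensus and CAGCTG as those letters. Both read the same on either strand, and neither can overlap the other. A CArG box lay in 1.49% of the 10631 compared genes with an entry, and CAGCTG in 14.6%. The Srf promoter held a pair of CArG boxes, which began 82 and 62 bases before the start of the gene. Among the SRF cytoskeletal targets, 6 of 24 promoters (25.0%) held a CArG box and 3 (12.5%) held CAGCTG. Among acetylcholine receptor and neuromuscular junction genes, 0 of 10 held a CArG box and 4 held CAGCTG, and among excitation-contraction genes the counts were 0 and 5 of 10. Sarcomere genes had both, with a CArG box in 4 and CAGCTG in 7 of 18. So did smooth muscle contractile genes, with 1 and 3 of 9, and the SRF immediate-early targets, with 1 and 4 of 16. Among the genes named below for the largest rise and the largest fall, CAGCTG lay in 3 of 11 and 2 of 7 promoters. A CArG box lay in 1 of the 11, that of Srf itself, and in 0 of the 7. With 1.49% of all genes holding a CArG box, a count of 0 in 10 or 7 promoters does not set a group apart. A match describes letters in this window, and binding was not measured.

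Srf (ENSMUSG00000015605, GRCm38 chr17:46548329-46556175, minus strand) was higher in every SRF library. It stood at 66.6, 93.8 and 83.4 CPM, counts scaled to a common library size, in pMSCV replicates 1, 2 and 3, and at 1673, 678 and 1033 CPM in SRF replicates 1, 2 and 3. The groups did not overlap, and the lowest SRF library lay 7.23-fold above its same-numbered pMSCV library, against 25.1-fold and 12.4-fold in the other pairs. In edgeR's quasi-likelihood fit Srf rose, with a log2 fold change of 3.79, a standard error (SE) of 0.38 and a Benjamini-Hochberg adjusted p of 0.00158. It was the only gene called in that fit of all 17 libraries, 1 of 15062 or 0.00664%. Whether all reads of the introduced gene counted towards mouse Srf is not known. None of the other 10 measured genes of SRF and its cofactors was called. Mrtfa, an actin-sensing coactivator, differed by 0.06 (SE 0.23) and its relative Mrtfb by 0.18 (SE 0.21) on the log2 scale. The ternary complex factors Elk1, Elk3 and Elk4 differed by 0.11 (SE 0.16), 0.10 (SE 0.19) and -0.03 (SE 0.18).

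**Figure D1:**
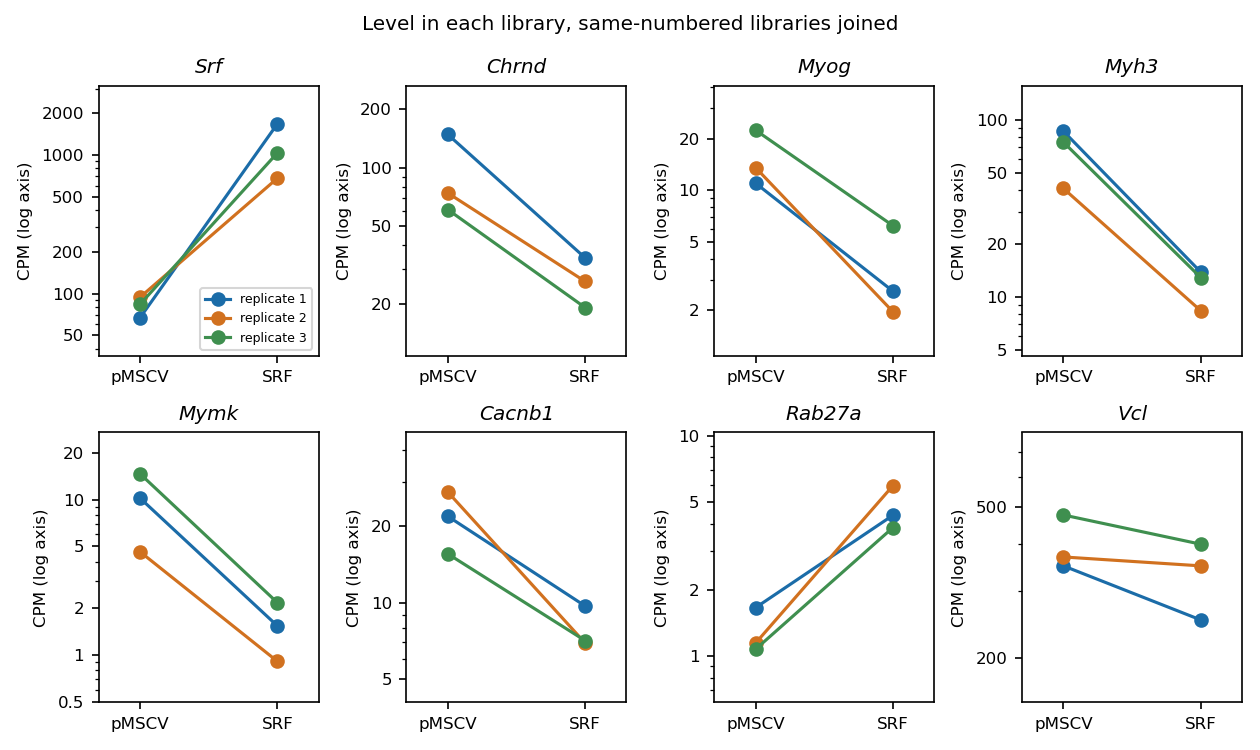
CPM on log axes for 8 genes in the pMSCV and SRF libraries. Each point is 1 library, and lines join libraries with the same replicate number. Srf and Rab27a are higher in all 3 SRF libraries than in any pMSCV library, Chrnd, Myog, Myh3, Mymk and Cacnb1 are lower in all 3, and the Vcl libraries overlap.

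Beyond Srf, the leading pattern was a lower level of skeletal muscle differentiation genes. Before adjustment 503 genes (3.34%) had a p under 0.05, of which 180 (1.2%) were higher and 323 (2.14%) lower. Same-numbered SRF and pMSCV libraries resembled each other, so the replicate number was also used as a block in a fit that added the 6 SRF-RELA and SRF-ICA1L libraries, 12 in all. The SRF-FOXO1 and SRF-PDGFRB libraries were left out of it, a choice made with earlier results of these data known. That fit called 2 genes (0.0137%), Srf and Chrnd, and gave 2211 genes at an unadjusted p under 0.05 (15.1%), 1111 higher (7.59%) and 1100 lower (7.51%). With the block in 17 and in 6 libraries, 899 and 997 genes reached that level. Within the 3 pairs, 2596 genes (17.2%) were lower in SRF in all 3 and 2621 (17.4%) were higher. Lower by at least 1 on the log2 scale in every pair were 90 genes (0.598%), and higher by as much were 24 (0.159%). Of the 115 measured members of 7 lists of skeletal muscle genes, 24 (20.9%) were among the 90, where 0.598% of all genes were. None of the members was among the 24 higher genes, which is near the 0.159% of all genes and so not a difference. Others of the 90, named after their values were seen, make or maintain muscle fibres too: Klhl40, Lmod3, Tmod1, Unc45b, Hrc, Jsrp1 and Synpo2l.

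Acetylcholine receptor and neuromuscular junction genes were lower in SRF in nearly all members. Of 15 measured, 11 (73.3%) were lower in all 3 pairs and 0 were higher, and the median log2 fold change was -0.70, against -0.02 over all genes. Chrnd (ENSMUSG00000026251, chr1:87190607-87200070, plus strand) encodes the delta subunit of the receptor on muscle fibres. It stood at 148, 74.2 and 60.9 CPM in pMSCV and 34.4, 26.0 and 19.1 CPM in SRF. All 3 SRF libraries lay below all 3 pMSCV libraries, by 2.85-fold to 4.32-fold within pairs. With the replicate block in 12 libraries Chrnd fell, its log2 fold change being -1.76 (SE 0.19) with an edgeR adjusted p of 0.0125. Without the block it was not called, with -1.83 (SE 0.40, edgeR adjusted p 0.969) in the same 12 libraries and -1.83 (SE 0.85, edgeR adjusted p 0.989) in all 17. Nor was it called with the block in 17 libraries (edgeR adjusted p 0.791) or in 6 (edgeR adjusted p 0.204). In the blocked fit of 12 libraries the call remained without replicate 3 (edgeR adjusted p 0.0406) and was lost without replicate 1 (0.446) or replicate 2 (0.0687).

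The other receptor genes had the same direction and were not called. Chrng, the gamma subunit of the embryonic receptor and the neighbour of Chrnd on chromosome 1, was at 10.8, 20.1 and 11.3 CPM in pMSCV and 1.32, 2.79 and 4.23 CPM in SRF, with no overlap. Chrna1, the subunit that binds acetylcholine, was at 302, 143 and 402 CPM against 108, 105 and 223 CPM, and here SRF replicate 3 lay above pMSCV replicate 2. Chrnb1, the beta subunit, was at 119, 40.1 and 117 CPM against 61.3, 41.4 and 67.2 CPM, so pair 2 showed no lower level. Genes that gather receptors at the synapse were not called either. Lrp4, the agrin receptor, had a log2 fold change of -0.79 (SE 0.61), the kinase Musk -0.52 (SE 0.74) and the scaffold Rapsn -0.42 (SE 0.33), and each was lower in all 3 pairs.

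Sarcomere genes had the largest median difference of the 28 lists, with a log2 fold change of -1.70. Of 36 genes written for the list, 24 were in the table, where every gene reached 10 counts in at least 3 libraries. A gene low in SRF can enter it through lines with a higher level, which can favour a shared lower direction. All 24 measured members had a negative log2 fold change, as 52.1% of all genes did, 20 (83.3%) were lower in all 3 pairs, and 13 were lower by at least 1 in every pair. The list holds myosins, troponins, actins and the proteins of the Z disc and M band. Myh3, the embryonic myosin heavy chain (chr11:67078300-67102291), was at 86.1, 41.0 and 74.7 CPM in pMSCV and 13.8, 8.37 and 12.9 CPM in SRF, lower by 4.90-fold to 6.23-fold within pairs. Myl4, an embryonic and atrial light chain, was at 14.9, 13.2 and 11.2 CPM against 5.13, 3.34 and 3.27 CPM. Tnnc1, the slow troponin C, was at 18.9, 18.2 and 29.2 CPM against 8.04, 5.85 and 6.49 CPM. The groups did not overlap in any of these genes, nor in 14 members of the list in all, where 5.15% of all genes had every SRF library below every pMSCV library.

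None of the sarcomere genes was called by edgeR. The log2 fold changes were -2.52 for Myh3 (SE 1.16), -1.75 for Myl4 (SE 0.40) and -1.70 for Tnnc1 (SE 0.59). DESeq2 called Myl4 lower (adjusted p 0.0431) among its 4 calls (0.0266%). With the replicate block in 12 libraries, 14 of 23 tested members (60.9%) had an unadjusted edgeR p under 0.05, all lower, as 7.51% of all genes did. In the edgeR fit of all 17 libraries 3 of 24 (12.5%) did, against 2.14% of all genes. Acta1, the skeletal alpha-actin and a textbook SRF target, was lower in all 3 pairs, at 46.2, 31.2 and 107 CPM in pMSCV and 10.8, 14.9 and 51.9 CPM in SRF, with overlapping groups. Actc1, the cardiac alpha-actin that myoblasts also make, was lower in pairs 1 and 2 and at 11.9 and 12.9 CPM in pair 3.

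**Figure D2:**
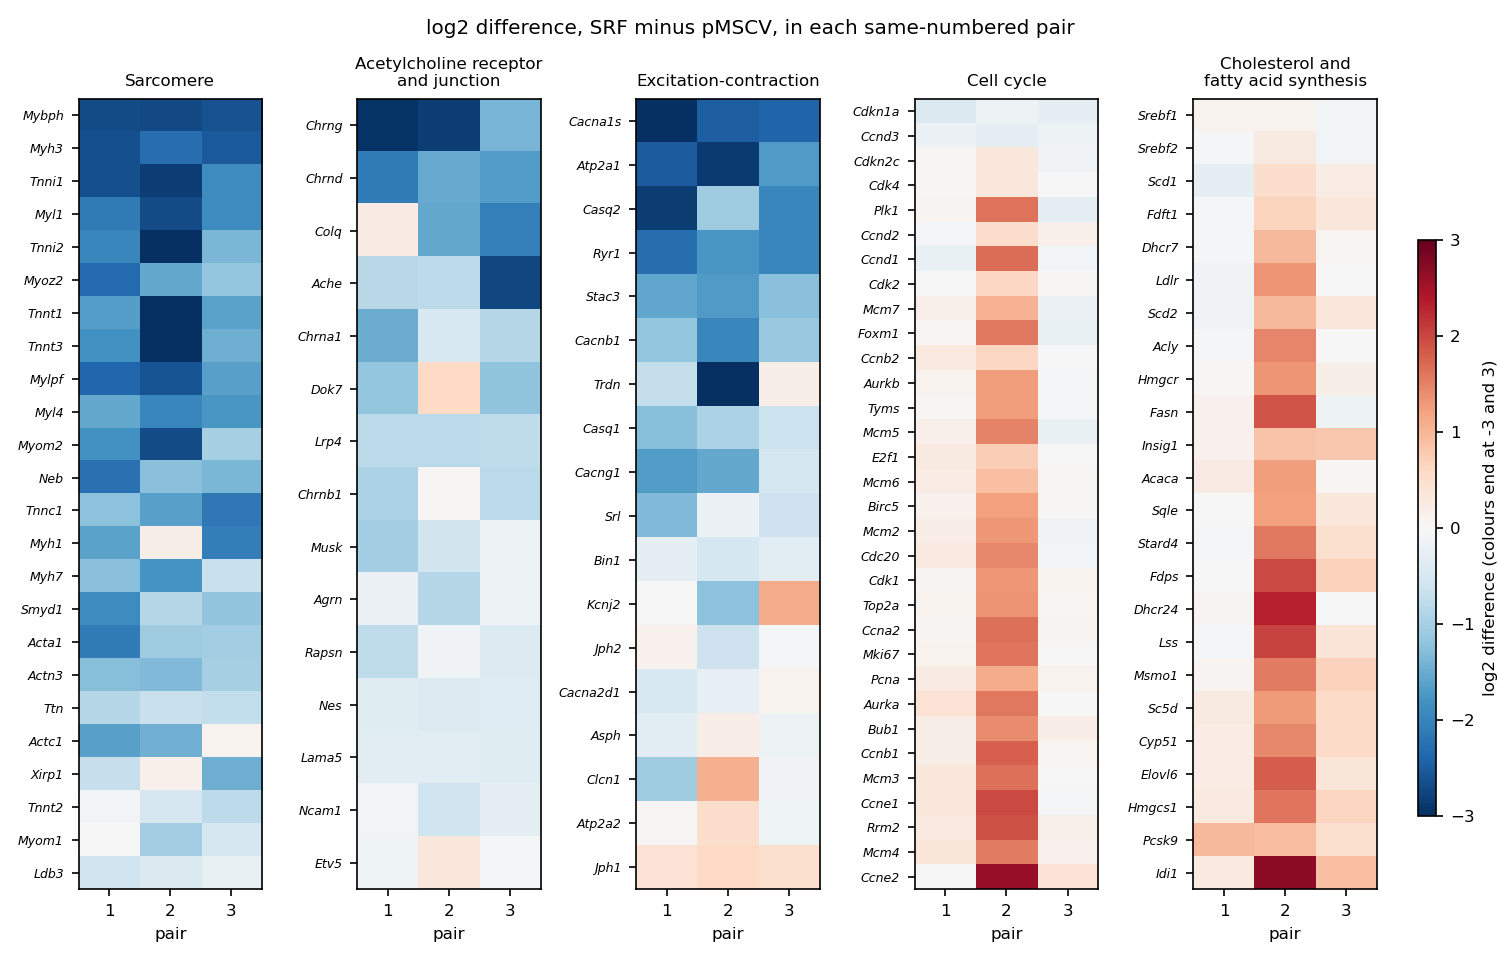
Log2 CPM difference, SRF minus pMSCV, in each same-numbered pair (columns) for every measured gene (rows) of 5 lists. Blue is lower in SRF, red is higher, and colours end at a difference of -3 and 3. The muscle lists are blue in most cells of all 3 columns, and the cell cycle and cholesterol lists are red mainly in pair 2.

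Excitation-contraction genes link the electrical signal at the membrane to calcium release. Of 18 measured, 10 (55.6%) were lower in all 3 pairs and 1, Jph1, was higher, with a median of -0.94. Cacnb1, the beta subunit of the muscle calcium channel, was at 21.9, 27.4 and 15.6 CPM in pMSCV and 9.72, 6.95 and 7.10 CPM in SRF. Atp2a1, the fast-fibre calcium pump, was at 9.45, 13.6 and 7.90 CPM against 1.59, 1.78 and 2.35 CPM. Stac3, an adaptor of the channel, was at 10.1, 10.7 and 9.35 CPM against 3.36, 3.25 and 3.88 CPM. These 3 genes and Ryr1, the calcium release channel, had every SRF library below every pMSCV library, and Cacna1s, the voltage sensor, did too from 21 to 53 counts per library in pMSCV and 2 to 9 in SRF. In all, 7 of the 18 genes (38.9%) were separated in this way, as 5.15% of all genes were. None was called. Atp2a2, the calcium pump that most cell types share, differed by 0.12 (SE 0.21) on the log2 scale.

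Among the regulators, myogenin stood lowest relative to the vector. Myog was at 11.02, 13.6 and 22.4 CPM in pMSCV and 2.59, 1.97 and 6.23 CPM in SRF, with no overlap and a log2 fold change of -2.12 (SE 1.27). Myod1, which commits cells to the myoblast fate, was at 61.1, 44.9 and 107 CPM against 28.3, 25.1 and 73.0 CPM, and the groups overlapped. Myf5 and Mef2c were also lower in all 3 pairs, and Pax3 was higher in all 3 from 3 to 9 counts per library in pMSCV and 7 to 23 in SRF. Of 14 regulators measured, 7 were lower and 1 higher in all 3 pairs. None was called.

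Fusion genes did not share 1 direction. Mymk, the membrane activator of myoblast fusion, was at 10.2, 4.63 and 14.7 CPM in pMSCV and 1.54, 0.914 and 2.18 CPM in SRF, lower by 5.06-fold to 6.74-fold within pairs. Itga7, the laminin receptor of myoblasts, was at 579, 434 and 480 CPM against 284, 202 and 288 CPM. Adam12, a metalloprotease of fusing myoblasts, went the other way, at 11.8, 6.13 and 26.8 CPM against 30.9, 31.3 and 51.1 CPM. All 3 genes separated the groups without overlap. Of the whole list 2 genes (11.1%) did so as lower and 4 (22.2%) as higher, against 5.15% and 4.02% of all genes. Of the 18 fusion and adhesion genes, 4 were lower and 4 higher in all 3 pairs. Of 14 energy metabolism enzymes 5 were lower and 1 higher in all 3 pairs, and the counts were the same among 12 dystrophin complex genes, where the sarcoglycan Sgca was among the lower.

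**Figure D3:**
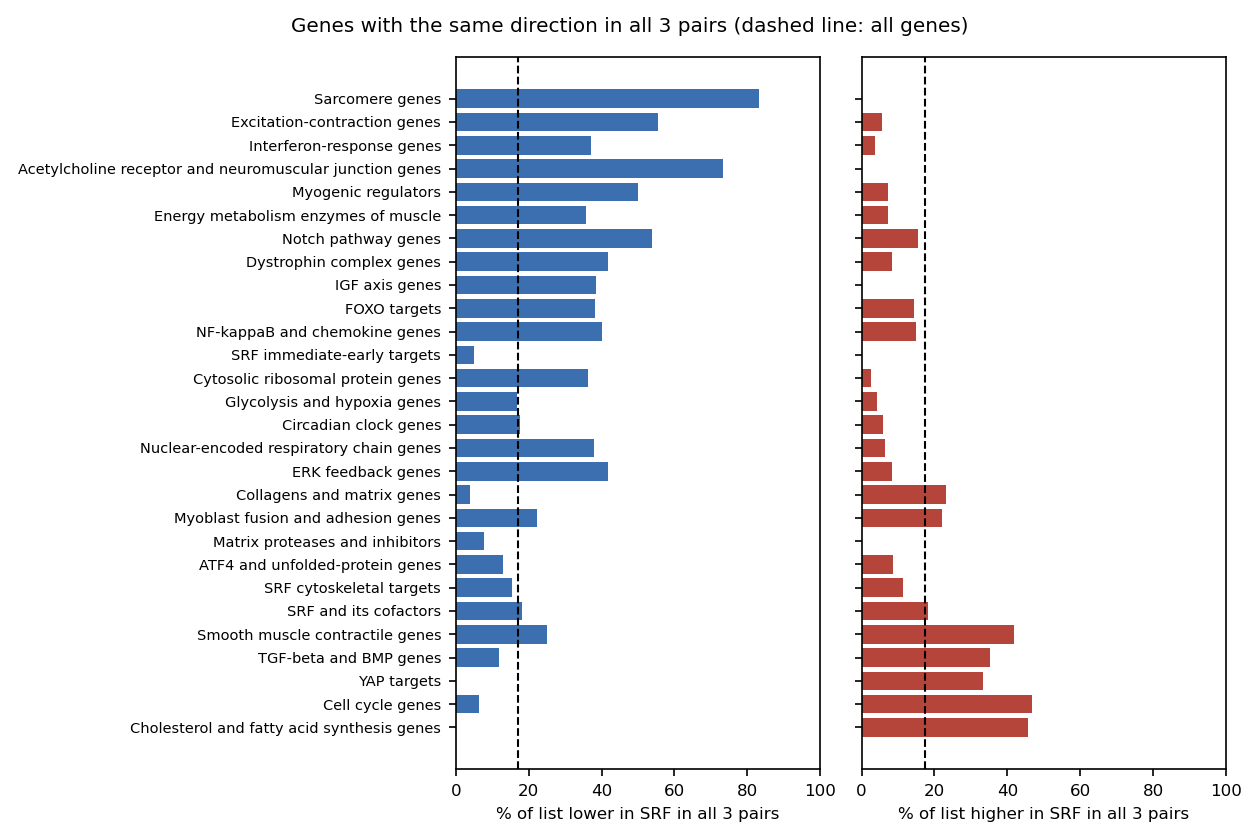
Share of the measured genes of each list that were lower (left) or higher (right) in SRF in all 3 same-numbered pairs, in percent. Dashed lines show the share over all genes, 17.2% lower and 17.4% higher, and the sarcomere list reaches 83.3% lower.

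Markers of other cell types were read beside these groups. All 8 myoblast markers were in the table, with summed levels of 1738 to 2060 CPM in pMSCV and 1025 to 1614 CPM in SRF, and 7 of 8 were lower in all 3 pairs. Of 8 differentiated muscle markers 7 were in the table, at 157 to 333 CPM against 36.4 to 111 CPM. In a bulk sample, fewer differentiated cells and less RNA per cell cannot be told apart. Fibroblast markers (6 of 8 in the table) summed to 53.6, 514 and 93.4 CPM in pMSCV and 65.4 to 137 CPM in SRF, and the high library was pMSCV replicate 2. Of 8 markers of smooth muscle and pericytes 7 were in the table, and their summed levels were 469 to 2627 CPM in pMSCV and 1330 to 4145 CPM in SRF. Of these 7, 3 were higher in all 3 pairs (Acta2, Cnn1 and Mcam) and 1, Notch3, was lower. Of the endothelial markers only Cdh5 and Tek were in the table, both lower in all 3 pairs from summed levels of 0.327 to 2.81 CPM in pMSCV and 0.0457 to 0.500 CPM in SRF. The part of these cell types in the results was not tested. Of 8 markers each, 3 of leukocytes, 2 of adipocytes, 2 of epithelium and 4 of bone and cartilage were in the table.

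The library pMSCV replicate 2 stood apart in several groups. Dcn, a matrix proteoglycan of fibroblasts, was at 377 CPM there and 24.8 and 25.5 CPM in the other pMSCV libraries, and Mki67, made by dividing cells, was at 232 CPM against 622 and 776 CPM. The muscle lists were therefore also counted without its pair. In pairs 1 and 3 alone, 22 of 24 sarcomere genes, 14 of 15 receptor and junction genes and 12 of 18 excitation-contraction genes were lower in SRF in both pairs, where 30.3% of all genes were. Without pMSCV replicate 2 their medians were -1.83, -0.64 and -0.78. The other muscle lists lay closer to 0 without that library. The median of the myogenic regulators moved from -0.59 to -0.10, that of energy metabolism enzymes from -0.55 to -0.16 and that of dystrophin complex genes from -0.40 to -0.22, and that of fusion and adhesion genes turned from -0.05 to 0.04. In pairs 1 and 3 alone, 8 of 14 regulators, 8 of 14 enzymes, 5 of 12 dystrophin complex genes and 5 of 18 fusion and adhesion genes were lower in both.

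**Figure D4:**
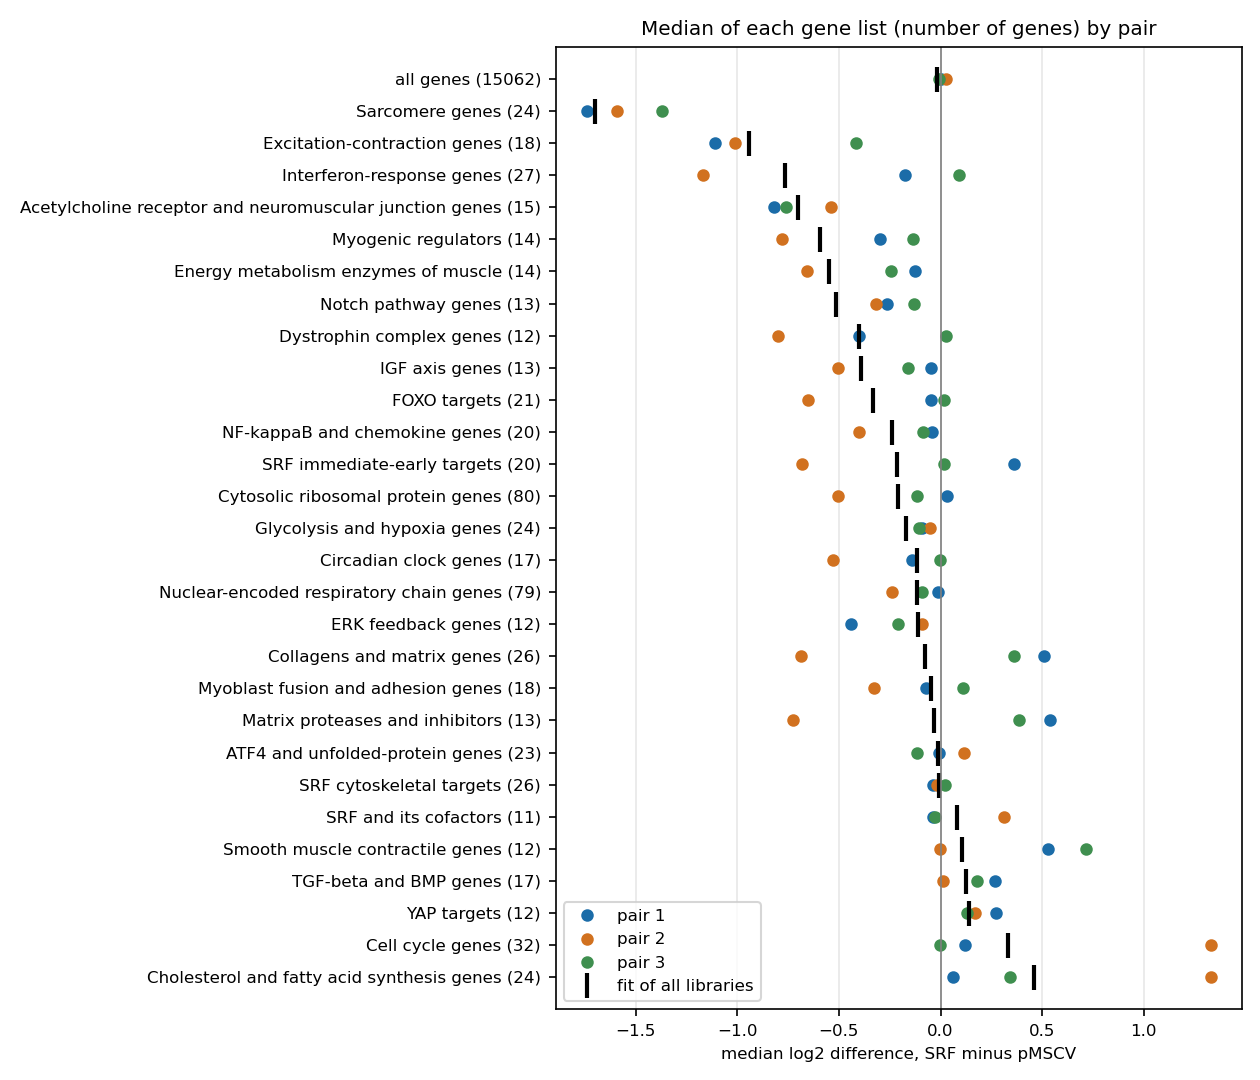
Median log2 CPM difference, SRF minus pMSCV, of each gene list in each same-numbered pair (points), and the median log2 fold change in the fit of all libraries (bars). The number of genes is in brackets. Sarcomere genes lie between -1.74 and -1.37 in the 3 pairs, whereas cell cycle genes lie at 1.33 in pair 2 and at 0.12 and near 0 in the others.

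The cytoskeletal genes that SRF controls through MRTF showed no common direction. Of 26 measured, 3 (11.5%) were higher and 4 (15.4%) lower in all 3 pairs, and the median was -0.01. Vcl, which anchors actin at focal adhesions, was at 350, 369 and 477 CPM in pMSCV and 252, 350 and 399 CPM in SRF, lower in each pair with overlapping groups. Actb, the main actin of non-muscle cells, differed by -0.06 (SE 0.23), and its sign changed without pMSCV replicate 3 (0.19) or SRF replicate 1 (0.07). Fhl2, a LIM protein that binds SRF, had a log2 fold change of -0.36 (SE 0.26). Dstn, which severs actin filaments, and Cald1, which binds actin and myosin, were higher in all 3 pairs, the log2 fold change of Dstn being 0.54 (SE 0.26) and that of Cald1 0.42 (SE 0.20). None of these was called.

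Several smooth muscle contractile genes, another group of SRF targets, were higher in SRF. Of 12 measured, 5 (41.7%) were higher in all 3 pairs, namely Acta2, Actg2, Cnn1, Lmod1 and Tagln, and 3 (25.0%) were lower. Acta2, the smooth muscle alpha-actin, was at 222, 1592 and 2414 CPM in pMSCV and 973, 2187 and 3902 CPM in SRF. Cnn1, an actin-binding protein of smooth muscle, was at 0.415, 1.32 and 7.62 CPM against 1.54, 9.97 and 18.6 CPM. Lmod1, which nucleates actin filaments, was at 0.231, 5.25 and 3.18 CPM against 3.23, 8.28 and 19.2 CPM. In these 3 genes the spread between replicates was wider than the step between the lines, and the groups overlapped. Tagln, which binds actin, separated the groups from low counts, 5 to 15 per library in pMSCV and 18 to 44 in SRF, with a log2 fold change of 1.32 (SE 0.46). None was called, and Acta2 and Actg2 may share reads with each other and with the other actin genes. Des and Myl9, lower in all 3 pairs, belong to the same list. In the fit of all libraries 6 of its 12 members were higher and 6 lower, with a median of 0.10, and the median was 0.94 without pMSCV replicate 2.

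**Figure D5:**
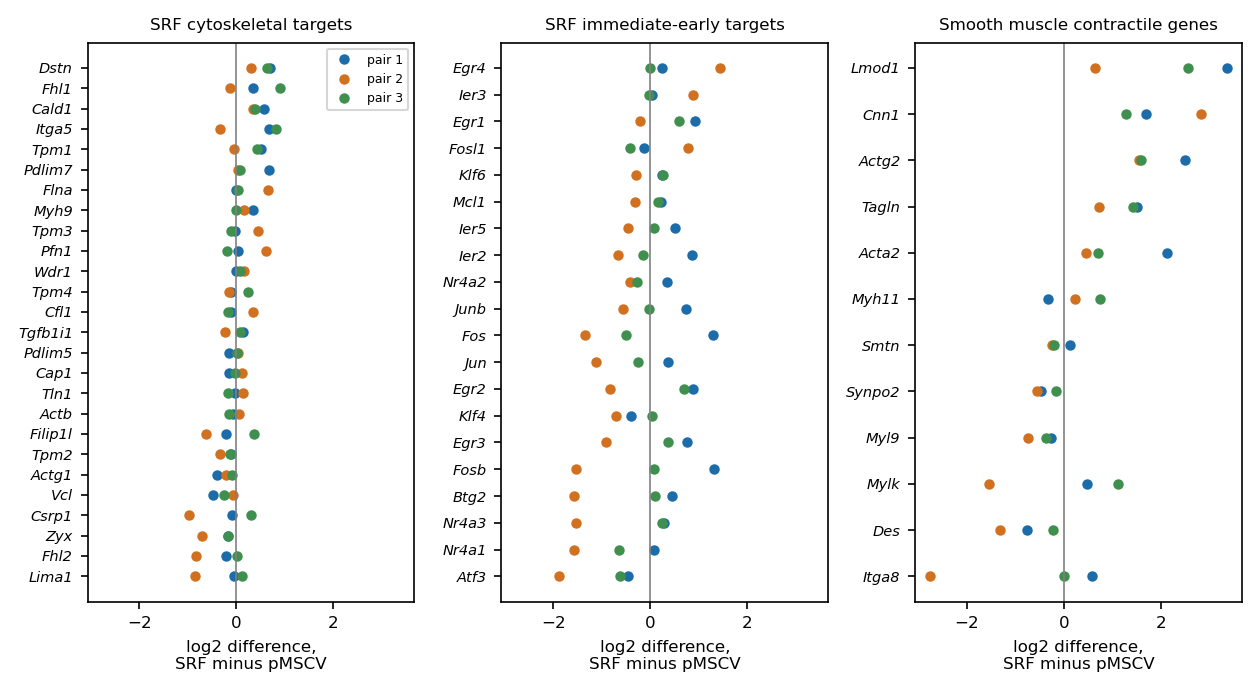
Log2 CPM difference, SRF minus pMSCV, of each measured gene of 3 lists in the same-numbered pairs (1 point per pair). Cytoskeletal targets lie near 0, immediate-early genes spread by pair, and 5 smooth muscle genes lie above 0 in all 3 pairs.

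Immediate-early genes, which SRF controls through the ternary complex factors, followed the replicate number. Fos, a subunit of the AP-1 factor, was at 159, 562 and 1.45 CPM in pMSCV and 388, 221 and 1.002 CPM in SRF. Egr1, a zinc-finger factor induced within minutes of serum, was at 520, 1818 and 84.7 CPM against 981, 1576 and 127 CPM. Both lines were high in replicates 1 and 2 and low in replicate 3. Of the 20 genes 0 were higher in all 3 pairs and 1, Atf3, was lower. The median was -0.21, but 0.86 without pMSCV replicate 2.

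Receptor and feedback genes of growth factor pathways included some of the larger differences. Erbb3, a receptor for neuregulin, was at 29.3, 9.79 and 14.5 CPM in pMSCV and 4.998, 3.93 and 4.45 CPM in SRF, lower by 2.49-fold to 5.87-fold within pairs. Dusp10, a phosphatase of stress kinases, was at 139, 204 and 105 CPM against 75.5, 88.8 and 85.5 CPM. Both separated the groups. Igfbp5, an IGF-binding protein that myoblasts secrete, and Igfbp2 were lower in all 3 pairs, Igfbp5 by a log2 fold change of -1.42 (SE 0.96) and Igfbp2 by -1.57 (SE 0.96). Of 13 Notch pathway genes 7 were lower in all 3 pairs, among them the ligand gene Dll1 and the target Hey1, and 2 were higher, the ligand gene Jag1 and Lfng. The list median was -0.51, and -0.14 without pMSCV replicate 2. Of 13 IGF axis genes 5 (38.5%) were lower and 0 higher in all 3 pairs, and of 12 ERK feedback genes 5 (41.7%) were lower and 1 higher. Over all genes 17.2% were lower and 17.4% higher. The IGF median was -0.39, and -0.12 without pMSCV replicate 2, and the ERK feedback median was -0.11 and -0.22. None of these genes was called.

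Interferon-response genes had no common direction across pairs. Of 27 measured, 10 were lower and 1 higher in all 3 pairs, with list medians of -0.18, -1.17 and 0.09 in pairs 1, 2 and 3. The members named by the lowest p include genes of MHC class I presentation, and edgeR called none of them. H2-K1, a class I heavy chain, was at 64.9, 70.9 and 49.2 CPM in pMSCV and 35.2, 24.9 and 26.8 CPM in SRF, with a log2 fold change of -1.09 (SE 0.20). DESeq2 called it lower (adjusted p 0.00364) and edgeR did not (adjusted p 0.697). Nlrc5, the transactivator of class I genes, was at 6.87, 5.69 and 4.30 CPM against 2.64, 2.42 and 1.44 CPM, and B2m, the light chain, was lower in all 3 pairs by a log2 fold change of -0.53 (SE 0.21). H2-D1, another heavy chain, was at 50.2, 88.3 and 47.0 CPM against 36.7, 39.1 and 44.0 CPM, nearly level in pair 3. H2-K1 and H2-D1 share sequence with each other and with other class I genes, so their counts are uncertain. The median of the 27 genes was -0.77 and turned to 0.19 without pMSCV replicate 2, where Ifit1 stood at 16.6 CPM against 2.67 and 1.17 CPM in the other vector libraries.

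Cell cycle and sterol genes were higher mainly in pair 2. Of 32 cell cycle genes 15 (46.9%) were higher and 2 lower in all 3 pairs, with medians of 0.12, 1.33 and near 0 in pairs 1, 2 and 3. Mki67 was at 622, 232 and 776 CPM in pMSCV and 665, 703 and 781 CPM in SRF, so the low library was pMSCV replicate 2. Ccnd1, the cyclin that growth factors induce, differed by 0.20 (SE 0.48), and by -0.22 without that library. Of 24 cholesterol and fatty acid synthesis genes 11 were higher in all 3 pairs and 0 lower. Idi1, an enzyme that makes isoprenoid units, was at 88.6, 18.4 and 23.0 CPM against 109, 119 and 43.2 CPM. The list median was 0.46, and 0.18 without pMSCV replicate 2.

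Collagen and matrix genes differed by pair. Of 26 measured, 6 (23.1%) were higher and 1 lower in all 3 pairs, where 17.4% of all genes were higher. The list medians were 0.51, -0.69 and 0.36 in pairs 1, 2 and 3, and -0.08 in the fit of all libraries, in which 15 of the 26 were lower. Without pMSCV replicate 2 the median was 0.40, and in pairs 1 and 3 alone 21 (80.8%) were higher, where 30.0% of all genes were. Col12a1, a collagen on the surface of fibrils, was at 81.8, 164 and 139 CPM in pMSCV and 206, 268 and 252 CPM in SRF. This separated the groups, and the gene was not called. Of 17 TGF-beta and BMP genes 6 were higher and 2 lower in all 3 pairs, and of 12 YAP targets 4 were higher and 0 lower. Ccn2, a target of YAP and SRF alike, was at 17.8, 95.7 and 130 CPM against 80.4, 68.3 and 305 CPM, with no common direction.

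Other single genes were named mostly by the size of their smallest pair difference. Behind Srf, Trpv2, a calcium-permeable channel, ranked next among higher genes, at 0.830, 2.29 and 4.35 CPM in pMSCV and 3.18, 7.32 and 12.6 CPM in SRF, and its groups overlapped. Rab27a, a GTPase of vesicle secretion, was at 1.66, 1.15 and 1.08 CPM against 4.36, 5.94 and 3.83 CPM with no overlap. Nt5dc1, named because DESeq2 called it higher (adjusted p 0.0267) and not called by edgeR, was at 22.0, 16.4 and 20.5 CPM against 28.2, 32.1 and 30.3 CPM. Among lower genes, Myom3, an M-band protein, was at 2.95, 2.29 and 3.46 CPM against 0.363, 0.320 and 0.567 CPM. Cadm4, an adhesion protein, was at 30.3, 33.3 and 29.3 CPM against 10.9, 10.2 and 10.4 CPM, and Txnip, an inhibitor of thioredoxin that is also in the list of FOXO targets, was at 31.5, 44.7 and 46.1 CPM against 6.59, 12.6 and 17.3 CPM. These lower genes separated the groups and were not called.

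The 4 fusion lines were compared with the same pMSCV libraries, so their values are set beside those of SRF and are not independent of them. Taking SRF first and then the fusions with FOXO1, ICA1L, PDGFRB and RELA, the log2 fold change of Chrnd was -1.83, -4.24, -2.51, -1.69 and -2.89. The SRF-PDGFRB values rest on 2 libraries that lay far apart, at 1.98 and 56.5 CPM for Chrnd and at 0.643 and 146 CPM for Myh3. The log2 fold change of Myh3 was -2.52, -3.52, -2.67, 0.12 and -3.13 in this order, and that of Cnn1 was 1.69, 2.47, 3.60, -0.37 and 4.54. For Txnip the values were -1.74, 1.19, -0.59, -0.06 and -0.61. Most lines shared the lower level of muscle genes, and Chrnd was lower in all 4 fusion lines. In the same order the log2 fold change of Myog was -2.1, -2.5, -2.2, 1.5 and -3.1. That of Mymk was -2.7, -2.7, -2.7, 0.5 and -2.6. Other differences were also shared by most lines. In the same order the log2 fold change of Rab27a was 1.86, 2.63, 2.20, 2.04 and 2.41. That of Nt5dc1 was 0.62, 0.73, 0.68, 0.60 and 0.63, and that of H2-K1 was -1.09, -0.91, -1.11, 0.37 and -0.94. For Cadm4 it was -1.56, -3.33, -1.67, -0.94 and -1.97, and for Col12a1 0.92, 2.69, 1.75, 0.70 and 1.91. These differences from pMSCV, those of the muscle genes among them, were not particular to the SRF line. Differences between the lines were not tested here.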

How the data were processed

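RNA sequencing was done on polyadenylated RNA with a stranded kit, per the labels' protocols. The authors deposited raw counts per gene. The submitters' processing notes name FastQC 0.11.8, Trimmomatic 0.39, HISAT2, featureCounts of Subread 2.0.0 and GRCm38. The annotation and the strand setting are not given in the sources used here. Every gene reached 10 counts in at least 3 libraries. Of 1531 genes without a symbol, 1519 received one by identifier. Gene coordinates came from a GRCm38 annotation.

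Counts were scaled by TMM and tested with edgeR 4.0.16 (robust quasi-likelihood, R 4.3.3) in 1 fit of 17 libraries by line, with Benjamini-Hochberg adjustment over 15062 genes and calls at an adjusted p under 0.05. The biological coefficient of variation was 36.5%. Each standard error was derived as the size of the log2 fold change over the square root of its F statistic. It comes from the fit of 17 libraries unless another fit is named. Pair differences are log2 CPM with a prior count of 2. Alternatives were the replicate block, other scalings and filters, leaving out each library, and DESeq2 1.42.0. The tests were tried on simulated data.

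Across genes, deviations from the line mean correlated at 0.573, 0.392 and 0.609 between same-numbered SRF and pMSCV libraries and at -0.415 to -0.0928 otherwise, so the numbers were taken as pairs. The pairing comes from these correlations. Deviations cancel out within a line for each gene, so the negative values follow in part from the positive ones and are not separate evidence. With the block, the coefficient of variation in 12 libraries was 18.6%. No library was counted as a duplicate, since the chi-square statistic between libraries of 1 line, divided by its degrees of freedom, lay between 29.9 and 190.

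The comparison, the 28 gene lists and 9 marker lists, written from general knowledge, and the tests were chosen with earlier results of these data known. Named genes were those called in any fit with or without the block or by DESeq2; 12 in each direction with the largest smallest pair difference, an unadjusted p under 0.05 and 50 or more counts in each library of the line with the higher level, without predicted genes; up to 4 members per list with the lowest p under 0.05; and a fixed set of SRF and muscle genes. Other genes were chosen after their values were seen, among them Chrnb1, Lrp4, Rapsn, Jph1, Ryr1, Atp2a2, Sgca, Elk1, Elk3, Elk4, Actc1, Dstn, Cald1, Actg2, Des, Myl9, Atf3, Igfbp2, Igfbp5, Hey1, Dcn, Mki67, Idi1, Ifit1, Mcam, Notch3, Cdh5, Tek, Jag1 and Lfng.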

Additional observations from a re-analysis of the deposited data

How the results depend on the processing

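The calls depended on the fit. The adjusted calls numbered 2 with the replicate block in 12 libraries, 0 in the 6 libraries with the block, 0 without it, and 4 by DESeq2 (Srf, Myl4, H2-K1 and Nt5dc1). At an unadjusted p under 0.05 the 6 libraries gave 997 genes with the block and 435 without it, and DESeq2 gave 692. The count of genes at that level was 899 with the block in 17 libraries and 2211 in 12. Leaving out 1 library gave 1 call each time and 237 to 1135 genes at that level. Leaving out a replicate number in the 12 blocked libraries, chosen after seeing the data, gave 0 calls without replicate 1 and 4 without replicate 2 or 3. Not all of these called genes are named here, and statements above that genes were not called leave these fits out. Chrnd was called with the block in 12 libraries, and again without replicate 3 (adjusted p 0.0406, edgeR), and Mymk only without replicate 2 (adjusted p 0.0252, edgeR). In 12 libraries the block added the call of Chrnd and changed no other call of a named gene, and in 17 and in 6 libraries the calls of named genes were the same with and without it.

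Srf kept its direction in every setting. It was not called in 6 libraries (3.70 with the replicate block and 3.78 without it), and with the block in 12 libraries it ranged from 3.30 to 4.07 without 1 replicate number, where it was called only without replicate 3.

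Some signs turned, all in genes that were not called. Over the 6 fits without 1 library, the log2 fold change ran from -0.25 to 0.19 for Actb, from -0.12 to 1.41 for Ccn2, from -0.22 to 0.53 for Ccnd1, from -0.54 to 1.56 for Egr1, from -1.12 to 1.33 for Fos, from -0.83 to 1.20 for Junb, from -0.10 to 0.41 for Mrtfa and from -0.29 to 1.69 for Pdk4. With the block Junb was 0.011, 0.062 and 0.038 in 17, 12 and 6 libraries. In the 12 blocked libraries without replicate 2, Fos was 0.90, Junb 0.36, Ccnd1 -0.161 and Mrtfa -0.076, and Junb was 0.081 without replicate 3. The causes were not tested.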

Other observations

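Ribosomal protein and respiratory chain genes lay slightly lower in SRF, mainly in pair 2. Of 80 cytosolic ribosomal protein genes 29 (36.2%) were lower in all 3 pairs, as 17.2% of all genes were, and 2 were higher. Their median log2 fold change was -0.21, which was -0.11 without pMSCV replicate 2. In pairs 1, 2 and 3 their medians were 0.031, -0.505 and -0.118. Of 79 nuclear-encoded respiratory chain genes 30 (38.0%) were lower and 5 higher, with a median of -0.12. Their pair medians were -0.0145, -0.238 and -0.0894. In pairs 1 and 3 alone 37.5% of the ribosomal and 40.5% of the respiratory genes were lower, where 30.3% of all genes were. The FOXO target Fbxo32, an atrophy ligase, was at 31.0, 73.9 and 24.7 CPM in pMSCV and 18.7, 21.9 and 25.1 CPM in SRF, nearly level in pair 3. Pdk4, which inhibits pyruvate dehydrogenase, was higher in all 3 pairs, at 7.10, 25.4 and 67.2 CPM against 19.4, 35.1 and 103 CPM. Of 21 FOXO targets 8 were lower and 3 higher in all 3 pairs.

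Srf differed most in pair 1, then in pair 3, then in pair 2. Of the 2596 genes lower in all 3 pairs, 275 (10.6%) had the same order of pairs by size, and of the 2621 higher genes 228 (8.70%) did. Pair 2 was the largest in most of them. These are values of 3 pairs, and no relation between the level of Srf and other genes was tested.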
